A study of Mus musculus with 8 samples.

Results

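Single-nucleus RNA libraries that carried a single sample index were compared with libraries that carried dual indexes, in cerebral cortex of C57BL/6J mice at postnatal day 25. The members were chosen by the sample descriptions alone: 4 libraries are described as single-indexed and 4 as dual-indexed, and these are all 8 libraries of the series. Each group held 1 WT male, 1 WT female, 1 Chd8 het male and 1 Chd8 het female, each a separate mouse, where Chd8 het is a mouse with 1 mutated copy of the chromatin remodeller gene Chd8. Every library was made with 10x Genomics v3 chemistry from frozen cortex without its medial part, and nuclei of all samples were isolated side by side. The mice came as litter- and sex-matched pairs of WT and Chd8 het, the single-indexed library was always replicate 1 of its genotype and sex, and the dual-indexed library always replicate 2. Index type, replicate number and litter therefore cannot be told apart here, and "index type" below names the labels and no cause. Male and female mice were of different litters, so within an index type sex and litter cannot be told apart either. The labels write the genotype as Chd8+/-, and the allele is not given in the sources used here. Chd8 itself stood at 76.2, 79.6, 76.6 and 77.9 CPM (counts per 1000000, scaled as in the edgeR fit) in the single-indexed WT male, WT female, Chd8 het male and Chd8 het female, and at 82.9, 80.2, 87.8 and 76.2 CPM in the same order in the dual-indexed libraries, so its level did not separate the genotypes.

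A sample index is a short sequence read beside the insert, which assigns a read to its library when libraries are sequenced together. With a single index 1 end of the fragment names the library, and with dual indexes both ends must match, so that a molecule whose index was exchanged during sequencing is less likely to be assigned wrongly. Each nucleus is named by its own barcode and each captured RNA molecule by a unique molecular identifier (UMI), so a count is a number of molecules. Nuclei hold mostly unspliced transcripts of long genes and nuclear noncoding RNA, while mature messages of short housekeeping genes, such as those for ribosomal proteins, lie mainly in the cytoplasm and reach a nuclear library as carried-over RNA.

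After filtering, 82168 of the 97772 deposited barcodes were kept, 42825 in the single-indexed and 39343 in the dual-indexed libraries. Kept nuclei per library numbered 9402 to 11663 in the single-indexed and 8022 to 11231 in the dual-indexed group, and UMIs over kept nuclei, in units of 1000000, summed to 68.9 to 79.9 and to 68.5 to 95.8. The median number of UMIs per nucleus was 6115, 5061, 5625 and 5728 in the single-indexed WT male, WT female, Chd8 het male and Chd8 het female, and 7556.5, 7530, 6210 and 7766 in the dual-indexed libraries in the same order. All 4 dual-indexed libraries lay above all 4 single-indexed ones (5632 ± 435 against 7266 ± 712, mean ± SD, n = 4 each; exact permutation test, two-sided, p = 0.0286, the smallest p that 4 against 4 allows; 0.121 after Benjamini-Hochberg adjustment over the 17 values tested). The permutation test counts the mice of a litter-matched pair as independent. Median genes per nucleus were 2399 ± 127 and 2803 ± 136, again without overlap (exact permutation p = 0.0286, adjusted 0.121). When each nucleus was thinned to 2000 UMIs, leaving out 1319 to 2220 shallower nuclei per single-indexed and 1081 to 1945 per dual-indexed library, the medians were 1119.5 ± 8.81 and 1131 ± 19.3 genes (exact permutation p = 0.4, adjusted 0.618). The largest nucleus held 50624 to 64087 UMIs in the single-indexed and 88475 to 150238 UMIs in the dual-indexed libraries. None of the 17 values passed the adjusted threshold. Values at the smallest possible exact permutation p, 0.0286, were at 0.121 after adjustment, so the lack of a pass does not show that the groups were equal. Every comparison of genes below is one between a shallower and a deeper group.

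Nuclei were gated by fixed markers into neurons and glia. Neurons made up 71.1 ± 1.40% of kept nuclei with a single index and 71.2 ± 1.29% with dual indexes (exact permutation p = 0.943, adjusted 0.971). The glial share was 20.6, 19.2, 19.0 and 20.5% in the single-indexed and 18.3, 18.2, 17.7 and 17.9% in the dual-indexed libraries, in the order given above. The groups did not overlap (19.8 ± 0.848% against 18.1 ± 0.289%; exact permutation p = 0.0286, adjusted 0.121). Microglia, the resident immune cells of the brain, accounted for most of that gap, with 5.06, 4.32, 3.86 and 5.02% against 3.20, 3.45, 2.31 and 3.27% of kept nuclei (exact permutation p = 0.0286, adjusted 0.121). Both differences turned around when nuclei needed at least 1000 genes and at most 1% mitochondrial UMIs, to 2.23 percentage points more glia and 0.503 points more microglia in dual-indexed libraries. With that filter the neuronal shares of the groups no longer overlapped. They were 79.9, 79.9, 80.2 and 78.0% in the single-indexed and 77.3, 75.4, 74.9 and 74.0% in the dual-indexed libraries. Excitatory neurons did not overlap there either, at 67.7 to 69.5% against 63.7 to 67.0%. Of the 6 marker classes microglia-gated nuclei were the shallowest, at a median of 1328 to 1417 UMIs in the single-indexed and 1424 to 1715 in the dual-indexed libraries. With the main filter excitatory neurons (means of 60.9 and 61.0%) and inhibitory neurons (6.61 and 6.43%) had overlapping libraries. So did astrocytes (6.96 and 7.02%), oligodendrocytes (4.86 and 4.64%) and their precursors (3.44 and 3.34%). Predicted doublets were 4.39 ± 0.946% and 6.09 ± 0.400% (exact permutation p = 0.0571, adjusted 0.194), and 9.22 ± 1.83% and 12.7 ± 2.84% of nuclei lay near a gate limit.

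**Figure D1:**
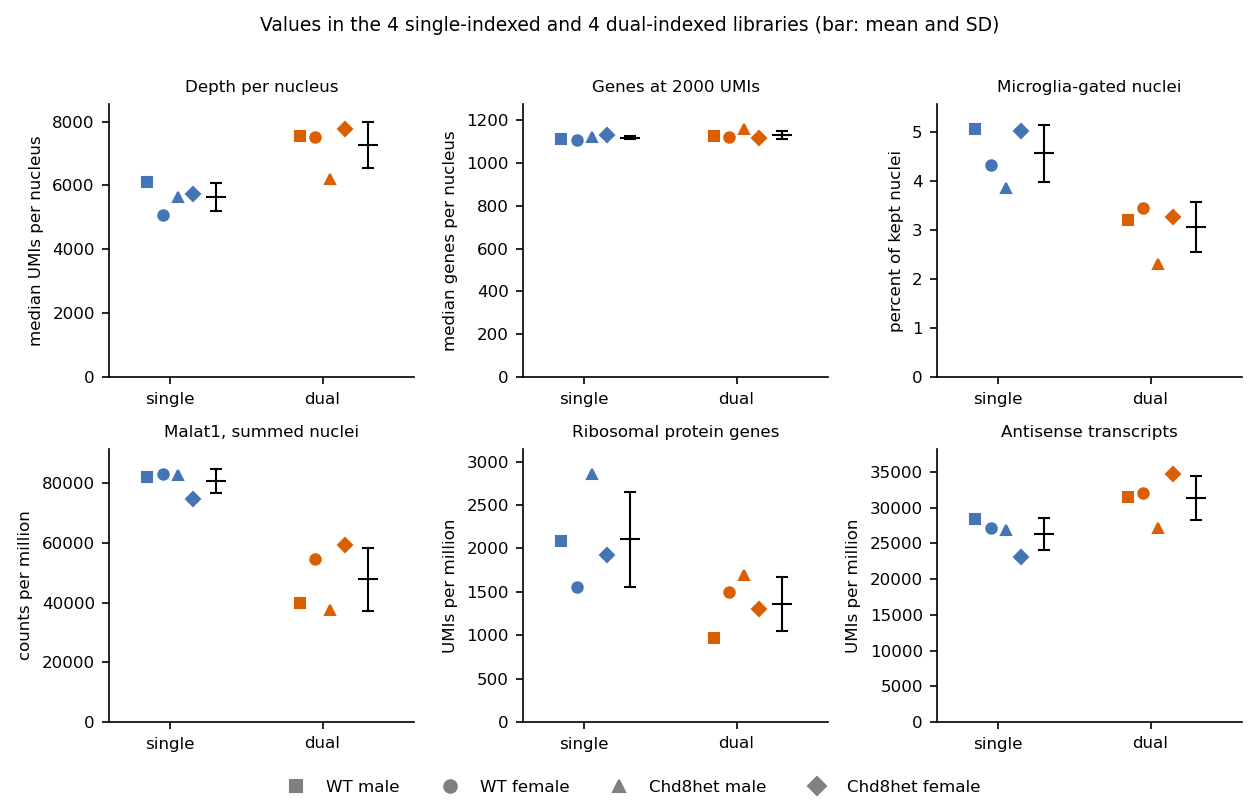
Values in each library by index type; symbols mark genotype and sex, and the bar beside each group is the mean with its SD (n = 4). Median UMIs per nucleus, microglia-gated nuclei (percent) and Malat1 (CPM) separated the groups, genes per nucleus at 2000 UMIs lay between 1110 and 1159 in all 8 libraries, and the UMIs per 1000000 (unscaled CPM) of ribosomal protein and antisense genes overlapped between groups.

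Transcripts that belong to the other sex were counted in every library, and where these UMIs came from was not tested. Xist, the RNA that coats the inactive X chromosome, had 10 and 20 UMIs in the single-indexed WT and Chd8 het males and 19 and 30 UMIs in the dual-indexed ones, which is 0.145 and 0.250 against 0.277 and 0.360 UMIs per 1000000 of the library (unscaled CPM). The Y-linked genes all have X-linked copies of similar sequence and are reported as uncertain for that reason. Uty had 23 and 38 UMIs in the single-indexed WT and Chd8 het females and 51 and 44 in the dual-indexed females, Kdm5d 11 and 5 against 18 and 9, and Eif2s3y 1 and 1 against 6 and 4. For all of these genes the dual-indexed libraries were no lower than the single-indexed ones of matched genotype in unscaled CPM, and 2 libraries against 2 cannot reach an exact permutation p under 0.333. The Y-linked helicase gene Ddx3y had 207 and 185 UMIs in single-indexed and 520 and 471 UMIs in dual-indexed females (2.93 and 2.44 against 5.43 and 5.82 unscaled CPM). Levels in the own sex differed too. In WT and Chd8 het females Xist stood at 1262 and 1227 against 895.5 and 791 unscaled CPM. In males Eif2s3y stood at 111 and 114 against 58.9 and 79.5 unscaled CPM. Uty and Kdm5d were also lower in dual-indexed males, and Ddx3y was higher (35.1 and 34.1 against 35.6 and 41.2 unscaled CPM). Cell barcodes shared by a pair of libraries numbered 41 to 54 where both were single-indexed, 27 to 52 where both were dual-indexed and 30 to 63 for a single-indexed with a dual-indexed library. As shared barcodes per 1000000 possible pairs these were 0.267 to 0.304, 0.223 to 0.345 and 0.244 to 0.332, so the 3 ranges overlapped.

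The gene-wise comparison asked which genes and gene classes differed between the index types, with genotype and sex as covariates in edgeR's quasi-likelihood F test. Over all kept nuclei, 7610 of 22187 genes passed a Benjamini-Hochberg adjusted p of 0.05, which is 34.3% of the genes tested; 3675 (16.6%) were higher and 3935 (17.7%) lower in dual-indexed libraries. In neurons 7364 of 21484 genes passed (34.3%; 16.4% higher and 17.9% lower), and in glia 3030 of 16123 (18.8%; 9.9% higher and 8.89% lower). In the same fit over all nuclei the genotype term gave 0 genes by edgeR (0.0%; 1241 at an unadjusted p under 0.05) and the sex term 14 (0.0631%; 0.0465% in neurons and 0.062% in glia). Most changes were small: the median size of a called change was 0.51 on the log2 scale, and 994 of the 7610 reached 2-fold, 766 of them higher and 228 lower. The 4 libraries of one index type lay above all 4 of the other for 6134 of the called genes (80.6%). Of all genes tested 32.4% were separated so (32.3% in neurons and 21.8% in glia). Within all 4 combinations of genotype and sex 7285 of the called genes had the same sign. Both counts of called genes come from the libraries that gave the calls and are no separate support.

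These counts depended on which libraries entered. Leaving out the single-indexed WT male gave 4841 genes over all nuclei and 4465 in neurons. Leaving out the single-indexed Chd8 het male gave 4885 in neurons. In glia, 1653, 1452, 1825 and 2016 genes passed without the single-indexed WT male, Chd8 het male, Chd8 het female and the dual-indexed WT male. Within WT libraries alone 4506 genes passed over all nuclei and within Chd8 het libraries alone 1286. The separate fits gave 7587 genes in males and 1324 in females, and in neurons 4496 in WT and 75 in Chd8 het. Each of these smaller fits compares 2 libraries with 2. The test of a different index effect between genotypes gave 0 of 22187 genes by edgeR (409 at an unadjusted p under 0.05; 1 by DESeq2).

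The largest rises with dual indexing, among genes at 10 CPM or more whose libraries did not overlap, were mostly of antisense transcripts. Csmd2os, an antisense transcript of Csmd2 (GRCm38, chromosome 4, 128133523 to 128166967, minus strand), stood at 36.2, 26.5, 30.5 and 17.6 CPM in the single-indexed WT male, WT female, Chd8 het male and Chd8 het female and at 88.6, 77.9, 58.2 and 59.4 CPM in the dual-indexed libraries. Every dual-indexed library was above every single-indexed one (log2 change 1.38, SE 0.12, adjusted p = 0.000186). Gm43507 (antisense to Ldb2, log2 change 1.37), Plxna4os2 (Plxna4, 1.36), Gm15700 (Sergef, 1.33), Gm47027 (Grip1, 1.33), C630031E19Rik (Myt1l, 1.32) and Gm50383 (Chka, 1.28) were of the same biotype. The genes they overlap, named for that overlap, had smaller log2 changes: Ldb2 rose by 0.81, Myt1l by 0.67, Csmd2 by 0.49, Plxna4 by 0.46, Sergef by 0.44 and Grip1 by 0.41, while Chka was at -0.02 (adjusted p = 0.824). The protein-coding genes among the 10 largest rises were Them4, a mitochondrial thioesterase gene (23.8, 24.5, 24.6 and 22.5 against 60.9, 56.7, 52.5 and 70.0 CPM), 4930447A16Rik, which overlaps Ncald on the opposite strand (1.32), and Pde10a. In neurons Kcnn3, a calcium-activated potassium channel gene, rose by 1.34 as well (SE 0.20, adjusted p = 0.002).

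Among the largest falls was Lynx1, a small membrane protein that damps nicotinic receptors (chromosome 15, 74747852 to 74753046, minus strand). It stood at 42.0, 49.5, 48.6 and 46.0 CPM in the single-indexed and at 18.1, 20.2, 18.6 and 20.9 CPM in the dual-indexed libraries. Its groups lay far apart (log2 change -1.26, SE 0.07, adjusted p = 8e-05). Rad51ap2 went from 90.9, 68.0, 78.0 and 71.7 to 30.7, 28.4, 29.9 and 32.9 CPM (-1.33), and Zfp46 (-1.25), the lysosomal protease gene Ctsl (-1.18), the mitochondrial ribosome gene Mrps21 (-1.18) and Gm9925 (-1.56) fell likewise. Gm9856 (antisense biotype, -1.20) and the lincRNA Gm27032 (-1.15) were among the 10 largest falls too, with the complement genes C1qb and C1qa. In neurons Ddit4l fell by 1.24 on the log2 scale. Within Chd8 het libraries alone, where 75 neuronal genes passed, the neuronal Kcnn3 and Ddit4l differences did not pass. The neuronal differences of Zfp46, Gm43507, Plxna4os2, Gm9856 and Csmd2os also lost the call in at least 1 alternative. In glia the largest fall was that of Mgp, a matrix protein gene, at 35.2, 18.4, 34.8 and 25.8 CPM against 3.68, 8.50, 3.57 and 8.32 CPM (log2 change -2.20, SE 0.29, adjusted p = 0.000536), followed by C1qb, Mrpl23 (-1.48) and Cd68 (-1.47), a lysosomal marker of phagocytes.

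Gene span, the distance from the start to the end of a gene with its introns, was graded with the direction of change. Of 1720 protein-coding genes under 5 kb tested over all nuclei, 115 (6.69%) were higher and 614 (35.7%) lower in dual-indexed libraries, with a median log2 change of -0.28. Of all genes tested over all nuclei 16.6% were higher and 17.7% lower. The share called lower fell through each longer bin up to 200 kb, to 27.5% at 5 to 10 kb, 22.9% at 10 to 20 kb, 17.5% at 20 to 50 kb, 12.5% at 50 to 100 kb and 7.94% at 100 to 200 kb. Of 755 coding genes of 200 to 500 kb, 296 (39.2%) were higher and 62 (8.21%) lower (median 0.15), and of the 225 over 500 kb 77 (34.2%) were higher and 16 (7.11%) lower (median 0.11). Summed over genes, those of 200 to 500 kb held 167450 ± 1474 unscaled CPM in the single-indexed and 184110 ± 3487 in the dual-indexed libraries, and those under 5 kb held 15510 ± 1847 and 11545 ± 1873. In neurons 35.5% of genes under 5 kb were lower and 32.9% of those over 500 kb higher, beside 17.9% and 16.4% of all genes. In glia these shares were 22.7% and 50.4%, beside 8.89% and 9.9% of all genes; the difference between the gates was not tested. Leaving out 1 library moved several of these counts by over 1.5 times, for example the 364 higher and 306 lower genes of 50 to 100 kb to 189 and 149 without the single-indexed WT male and to 172 lower without the dual-indexed WT female, and the 16 lower over 500 kb to 6 without the single-indexed WT male. The libraries that moved a count of a bin so were all but the single-indexed Chd8 het female and the dual-indexed Chd8 het male. The medians of the shortest and of the 200 to 500 kb bin kept their signs within WT, Chd8 het, male and female libraries (-0.27, -0.33, -0.37 and -0.22, and 0.15, 0.14, 0.16 and 0.12).

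**Figure D2:**
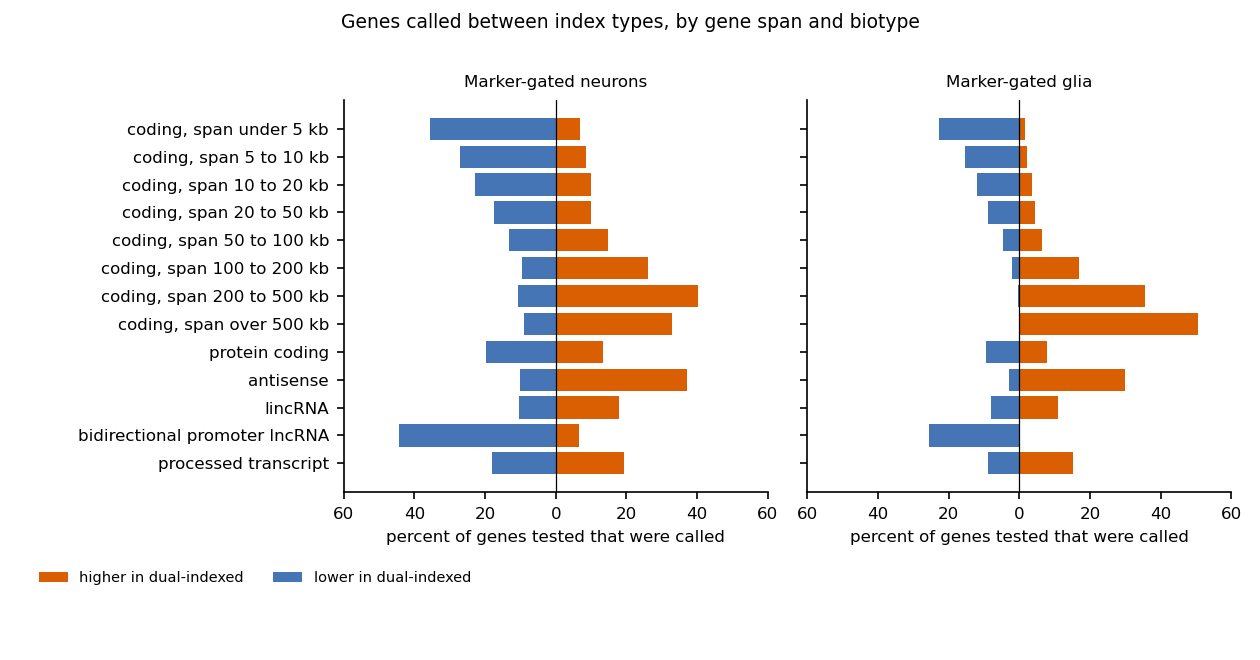
Percent of tested genes called higher (right) or lower (left) in dual-indexed libraries, by the span of protein-coding genes and by biotype, in marker-gated neurons and glia. In both gates short coding genes were called mainly lower and long ones mainly higher, antisense genes were called mainly higher (37.2% in neurons and 29.8% in glia) and bidirectional promoter lncRNAs mainly lower (44.4% and 25.6%).

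Of the 5 biotypes with at least 100 tested genes, antisense had the largest share called higher. Of 2302 antisense genes tested over all nuclei, 905 (39.3%) were higher and 225 (9.77%) lower, with a median log2 change of 0.31. Of all genes tested 16.6% were higher and 17.7% lower, the shares to set beside every count of this paragraph. The antisense median was 0.31 in neurons and 0.36 in glia. Summed, they held 28365, 27099, 26821 and 23097 unscaled CPM in the single-indexed and 31522, 32088, 27218 and 34728 unscaled CPM in the dual-indexed libraries. The groups overlapped, and the log2 difference was 0.15 and 0.24 in WT males and females, 0.02 in Chd8 het males and 0.59 in Chd8 het females. Without the single-indexed Chd8 het male, 142 antisense genes were called lower. Antisense genes were split by the overlapping gene on the other strand, a split added after the data were seen. The 1163 whose partner was at least 10 times as abundant had a median of 0.53 (569 higher, 77 lower), and the 1031 with a less abundant partner 0.20 (327 and 119). The 108 that overlap no counted gene on the other strand had a median of -0.10 (9 and 29). The 77 lower became 51, 48, 45 and 50 without the single-indexed WT male, WT female and Chd8 het male and the dual-indexed Chd8 het male. The sources used here do not say whether the counting used strand; without it, reads of an antisense transcript and of its partner cannot be told apart. Bidirectional promoter lncRNAs, which start back to back with a coding gene, went the other way. Of 158 tested, 8 (5.06%) were higher and 72 (45.6%) lower (median -0.44), and their summed level was 598, 667, 624 and 638 unscaled CPM in the single-indexed and 442, 480, 456 and 528 in the dual-indexed libraries, without overlap. The higher count was 5 without the WT male or the Chd8 het female of either index type.

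The 6 marker classes were also fitted separately. The index term passed for 6815 of 21080 genes in excitatory neurons (32.3%; 15.6% higher, 16.7% lower) and 3522 of 14875 in inhibitory neurons (23.7%; 11.9% and 11.8%). It passed for 1230 of 12789 genes in astrocytes (9.62%; 5.22% and 4.39%), 1342 of 11919 in oligodendrocytes (11.3%; 6.17% and 5.09%), 918 of 11146 in oligodendrocyte precursors (8.24%; 4.65% and 3.59%) and 911 of 10207 in microglia (8.93%; 4.98% and 3.95%). These classes differ in nuclei and UMIs, so their percentages are not compared. Antisense genes with a partner at least 10 times as abundant had medians between 0.48 (astrocytes) and 0.68 (microglia) in the 6 classes. Ribosomal protein genes had medians between -0.55 (astrocytes) and -0.71 (inhibitory neurons and microglia).

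**Figure D3:**
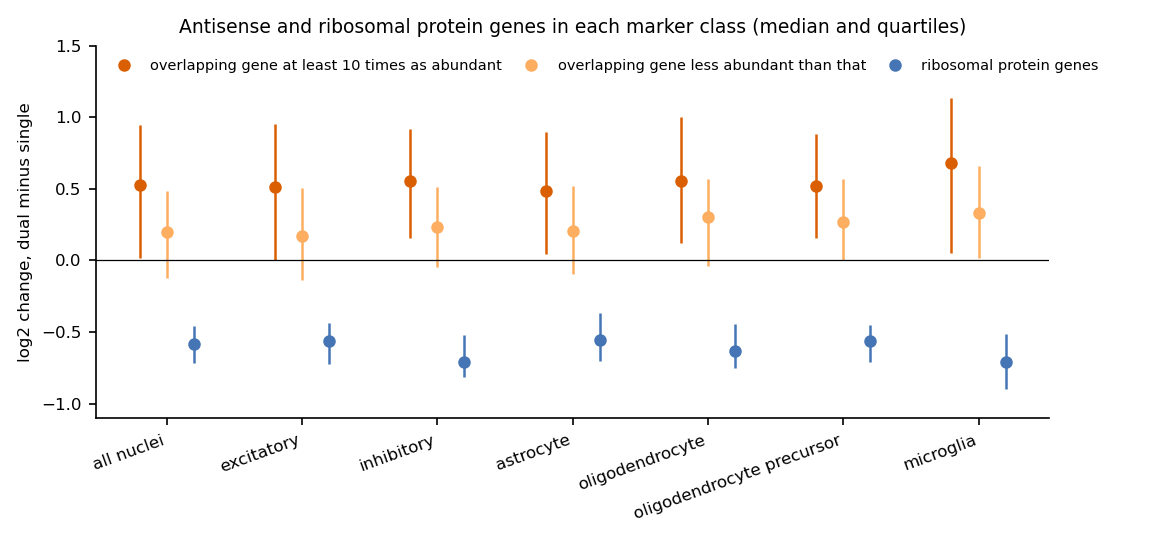
Log2 change (dual minus single) of antisense genes, split by the abundance of the overlapping gene on the other strand, and of ribosomal protein genes, over all nuclei and in each marker class; points are medians over genes and lines run from the lower to the upper quartile. In every class both antisense medians lay above 0 and the ribosomal protein median below -0.5.

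Malat1, an abundant lncRNA of nuclear speckles, was lower in dual-indexed libraries. It stood at 82018, 83079, 82704 and 74680 CPM in the single-indexed and at 39835, 54516, 37628 and 59140 CPM in the dual-indexed libraries. No dual-indexed library reached any single-indexed one (log2 change -0.78, SE 0.12, adjusted p = 0.00159), and in glia the change was -0.49 (adjusted p = 0.00521). The males differed more than the females in both genotypes. Of 17 nuclear lncRNAs tested 8 were higher and 3 lower, beside 16.6% higher and 17.7% lower of all genes tested, so the lower share was near that of all genes. The list's median was 0.14, and 0.26 without the dual-indexed WT male. Meg3, an imprinted neuronal lncRNA, rose from 7170, 7269, 6960 and 7049 to 9462, 8697, 8690 and 8927 CPM (0.33, adjusted p = 0.000972), as did its neighbours Rian (0.42) and Mirg (0.25), the imprinted Kcnq1ot1 (0.36) and Pvt1 (0.44). Gm42418 and Gm26917, loci to which ribosomal RNA reads are known to align, rose by 0.54 and 0.93, with all dual-indexed libraries above all single-indexed ones (Gm42418, 695 to 1004 against 1075 to 1452 CPM). The small nucleolar host genes Snhg11 and Gas5 fell by 0.34 and 0.29 on the log2 scale. Neat1 of paraspeckles did not pass (0.14, adjusted p = 0.376).

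Of 85 listed cytosolic ribosomal protein genes 82 were tested, and 53 (64.6%) were lower and 0 higher in dual-indexed libraries, beside 17.7% lower of all genes. The other 29 did not pass; all 82 fitted log2 changes were below 0, from -1.09 to -0.06, with a median of -0.59. In neurons 52 and in glia 36 of 82 were lower (17.9% and 8.89% of all genes), with medians of -0.59 and -0.62, and 0 were higher. Rps16 stood at 24.5, 17.5, 31.5 and 21.6 CPM in the single-indexed and at 8.03, 11.8, 13.7 and 10.3 CPM in the dual-indexed libraries (log2 change -1.09, SE 0.16, adjusted p = 0.0016). Its groups were apart, but the sums of the list overlapped: 2084, 1555, 2857 and 1919 unscaled CPM against 964, 1492, 1692 and 1295. Within WT females the log2 difference of that sum was -0.06, beside -1.11 in WT males, -0.76 in Chd8 het males and -0.57 in Chd8 het females. Without the single-indexed WT male, the single-indexed Chd8 het male or the dual-indexed WT male, 27, 30 and 33 members passed. In male and female libraries alone 81 and 3 passed (medians -0.96 and -0.30). Over all genes the male and female fits called 4011 and 406 lower, so these member counts are not compared.

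Nuclear genes of oxidative phosphorylation, the mitochondrial chain that makes ATP, had 34 lower and 0 higher of 75 tested (median -0.37), beside 17.7% lower of all genes. In neurons 36 were lower and in glia 14, beside 17.9% and 8.89% of all genes. The complex IV gene Cox5b went from 20.7, 14.8, 31.0 and 20.8 to 7.02, 13.0, 13.3 and 10.1 CPM (-0.96, adjusted p = 0.0098), and the ATP synthase gene Atp5g1 fell by 0.73 on the log2 scale. The list's sum again differed least in WT females (log2 -0.03, beside -0.61, -0.48 and -0.34). The count was 15 without the single-indexed WT male, 15 without the single-indexed Chd8 het male, 17, 20 and 61 without the dual-indexed WT male, Chd8 het male and WT female, the last with a median of -0.56. Transcripts made inside mitochondria had a median of -0.44 over 11 tested, but 1 passed: mt-Cytb, at 967, 640, 1055 and 814 CPM against 295, 547, 743 and 373 (-0.82, adjusted p = 0.0291), which overlapped between groups and did not pass when any 1 single-indexed library was left out. Without the dual-indexed WT female 6 of the 11 passed (median -0.70), without the dual-indexed Chd8 het male 3 were lower, and without the dual-indexed WT male 1 was higher and 1 lower, with a median of -0.21. The share of UMIs from mitochondrial genes was 0.258 ± 0.0551% and 0.176 ± 0.0739% (exact permutation p = 0.114, adjusted 0.324). Its part in the ribosomal protein and oxidative phosphorylation differences was not tested; with nuclei at 1% mitochondrial UMIs or less and 1000 genes or more, 69 ribosomal protein genes passed (median -0.61).

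**Figure D4:**
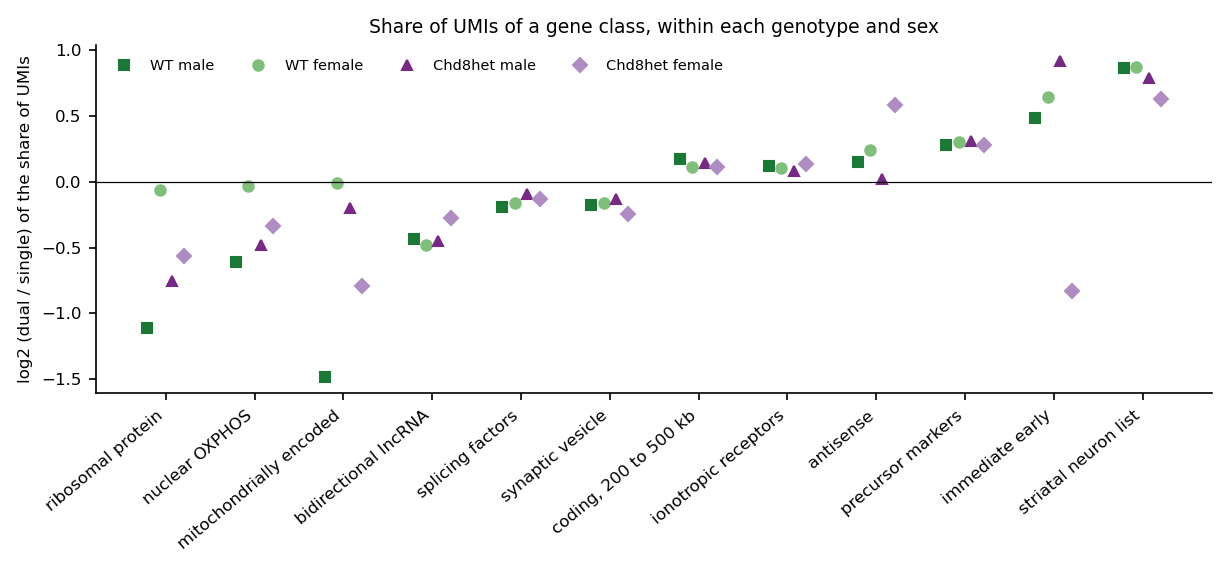
Log2 ratio of the share of UMIs that a gene class took in the dual-indexed to the single-indexed library, within each genotype and sex (1 library against 1 per point), over all kept nuclei. Ribosomal protein, oxidative phosphorylation and mitochondrially encoded genes were near 0 in WT females and lowest in WT males, and the immediate early list was the only one of the 12 classes drawn with points on both sides of 0, from 0.92 in Chd8 het males to -0.83 in Chd8 het females.

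Counts of the lists below are over all nuclei, where 16.6% of all genes tested were higher and 17.7% lower, unless a gate is named. Of 29 ionotropic glutamate and GABA receptor genes, 13 were higher and 6 lower (median 0.16). The AMPA receptor gene Gria1 rose from 632, 559, 628 and 497 to 968, 909, 922 and 744 CPM (0.61, adjusted p = 0.000227), with no overlap, and the kainate receptor genes Grik3 (0.77) and Grik4 (0.61) rose too. Gria2, the subunit that makes AMPA receptors impermeable to calcium, fell by 0.31 on the log2 scale and was named after its value was seen. Between 6 and 8 receptor genes were higher and 3 lower without the single-indexed WT male, the single-indexed Chd8 het male, the dual-indexed WT male or the dual-indexed WT female, and 3 were lower also without the single-indexed Chd8 het female or the dual-indexed Chd8 het male. Of 32 synaptic adhesion genes, which are mostly very long, 8 were higher and 1 lower (median 0.09; 15 and 0 in glia, median 0.25, beside 9.9% higher and 8.89% lower of all genes in glia), led by Nrxn2 (0.35), Lsamp (0.30) and Lrrtm1 (0.29); 2 were higher without the single-indexed WT male, 4 without the single-indexed Chd8 het male, 4 without the dual-indexed WT male, and 5 each without the single-indexed Chd8 het female and the dual-indexed WT female, while 2 were lower without the single-indexed WT female. Synaptic vesicle and axon terminal genes had 8 lower and 1 higher of 26 (median -0.07): the vesicle protein gene Syp fell by 0.38 on the log2 scale and Stmn3 by 0.36, while Gap43 rose by 0.52. Their median was -0.13 without the WT female of either index type and between -0.0080 and -0.0073 without the Chd8 het female of either, and the higher count was 0 without the single-indexed WT male and 2 and 3 without the single-indexed and the dual-indexed Chd8 het female. Of 25 tubulin, actin and neurofilament genes 6 were lower and 2 higher (median -0.27), with Tubb4a at 62.3, 73.5, 64.3 and 59.3 against 31.9, 35.3, 34.4 and 34.3 CPM (-0.93, adjusted p = 0.000147) and Tmsb10 at -1.18; 18 were lower, with a median of -0.42, without the dual-indexed WT female, the higher count ranged from 0 to 4 when 1 library was left out, and the median was -0.12 without the dual-indexed WT male and -0.16 without the single-indexed Chd8 het male.

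Of 27 splicing and RNA-binding genes 12 were lower and 1 higher, though the median was -0.05. Srsf11, a splicing regulator, stood at 265, 258, 253 and 253 against 162, 174, 156 and 171 CPM (-0.64, SE 0.05, adjusted p = 0.000149), a gap several times the spread within either group. The cold-inducible RNA-binding gene Cirbp (-0.77) and Srsf7 (-0.65) fell too, and Rbm3, also cold-inducible, was the 1 that rose (0.54). Of the 20 heat shock and folding genes 4 were lower, led by Cryab (-0.65), a share near the 17.7% over all genes, and 1 was higher.

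Among neuronal markers the level of a gene and the share of its cells could part. Inhibitory neurons were 6.61 and 6.43% of nuclei, and over all nuclei 4 of their 12 markers were higher and 4 lower (median 0.08). Those higher were Adarb2 (0.29), Dlx6os1 (0.25), Gad2 (0.24) and the receptor gene Erbb4 (0.22), the last named after its value was seen. Those lower, also named after their values were seen, were the neuropeptide genes Sst (46.6, 41.2, 39.3 and 42.2 against 13.8, 25.7, 23.0 and 13.8 CPM, -1.15) and Vip (-0.95), the calcium buffer gene Pvalb (-0.88) and the vesicular GABA transporter gene Slc32a1 (-1.14). The same 4 fell within inhibitory-gated nuclei alone, Slc32a1 by 1.18 on the log2 scale and Sst by 1.13. All 4 are among the markers that define that gate, so this is no separate test of their levels. Of 12 excitatory markers 3 were lower, Nrgn (-0.46), Slc17a7 (-0.28) and Kcnq5 (-0.16), and 1 was higher. Of 10 pan-neuronal markers 3 were higher, Rbfox3 (452, 466, 442 and 467 against 630, 593, 583 and 571 CPM, 0.38), Meg3 and Rbfox1 (0.20), and 3 lower.

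The complement gene C1qb, made by microglia, stood at 18.7, 16.1, 19.6 and 19.4 CPM over all nuclei in the single-indexed and at 5.96, 8.78, 8.51 and 6.55 CPM in the dual-indexed libraries (-1.30, SE 0.14, adjusted p = 0.000385), without overlap. C1qa (-1.16) and C1qc fell with it; 7 of 12 microglial markers were lower over all nuclei and 9 in glia, and 0 were higher in either (1 over all nuclei without the dual-indexed Chd8 het female); of all genes 17.7% were lower over all nuclei and 8.89% in glia. In bulk sums fewer microglia and less RNA per microglial nucleus cannot be told apart. Within microglia-gated nuclei, where 3.95% of all genes were lower, 4 of the 12 were lower: C1qb (-1.24), C1qa (-1.21), C1qc (-1.07) and the protease gene Ctss (-0.83), while Cx3cr1 (0.11), Inpp5d (0.19) and Dock8 (0.28) did not pass. The 12 markers also define the microglia gate and help define the glial gate, so these values within gates depend on the selection. The microglial list's median over all nuclei was -0.43, and 0.14, with 4 members higher and 3 lower, when nuclei under 2000 UMIs were left out and the others thinned. Oligodendrocyte precursor markers had 5 higher and 4 lower of 10: the matrix gene Tnr (549, 523, 484 and 457 against 822, 822, 626 and 714 CPM, 0.56), Megf11 (0.87) and Lhfpl3 (0.30) rose, while Olig1 (-0.78) and Pdgfra (-0.53), named after their values were seen, fell, and Olig1 and Pdgfra fell within the precursor gate too (-1.13 and -0.59). Olig1 and Pdgfra are among the markers that define the precursor gate, so their falls within it are no separate test. Leaving out any 1 library other than the dual-indexed Chd8 het female left 2 or 3 precursor markers higher, and 2 were lower without the single-indexed WT female or the dual-indexed WT male. The myelin genes Mog and Mal fell (-0.67 and -0.65), and of 10 oligodendrocyte markers 3 were lower and 1 higher. Astrocyte markers had 1 lower, Bmpr1b (-0.24), and 0 higher of 10.

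Pde10a, a phosphodiesterase abundant in striatal projection neurons, stood at 801, 688, 576 and 517 CPM in the single-indexed and 1964, 1879, 1496 and 1094 CPM in the dual-indexed libraries (1.30, SE 0.07, adjusted p = 8.02e-05). All dual-indexed libraries were above all single-indexed ones, in neurons (1.28), in glia (1.86) and within microglia-gated nuclei (1.62). Of 13 striatal markers 6 were higher and 0 lower (1 lower without the WT female of either index type), among them Drd2 (0.473, 1.22, 0.817 and 0.513 against 2.02, 5.23, 1.97 and 3.69 CPM, 2.02) and Adora2a (1.36), receptor genes of indirect-pathway neurons, with Rgs9 (1.15) and Rarb (0.85). Penk (-0.03), a neuropeptide gene of the same neurons, did not pass, nor did the direct-pathway genes Drd1 (0.07) and Tac1 (-0.27) or Ppp1r1b (0.24), and the pathways were not tested against each other. Of 12 hippocampal and claustral markers 5 were higher and 0 lower, with Nr4a2 at 1.00, Ntng2 at 0.44 and Prox1 at 0.28. Cortical layer markers had 5 higher and 2 lower of 20: Tshz2 (97.4, 190, 150 and 133 against 411, 209, 439 and 282 CPM, 1.19), Syt6 (0.83) and Otof (0.73) rose, and the layer 4 marker Rorb, named after its value was seen, fell by 0.87 on the log2 scale (513, 571, 437 and 585 against 274, 305, 170 and 431 CPM). The cortical layer list was called about as often as all genes tested (34.3%). The part of these region markers in the other results was not tested. Endothelial markers had 2 higher of 10 (Mecom 1.00 and Flt1 0.76), near the 16.6% over all genes, mural markers 4 higher of 10 (Tagln 1.33, Acta2 0.76, Notch3 0.63), and fibroblast markers 4 lower of 10 (Slc47a1 -0.80, Dcn -0.67, Col1a2 -0.40). Of 11 blood and choroid plexus genes Alas2 (0.94) and Kcnj13 (0.74) were higher and 1 lower, and the haemoglobin genes did not pass.

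Immediate early genes, induced within minutes of neuronal activity, had 5 higher and 3 lower of 30 (median 0.37), beside 16.6% higher and 17.7% lower of all genes tested, so the higher share was about that of all genes. Egr1 stood at 9.76, 8.70, 9.35 and 10.6 CPM in the single-indexed and 28.9, 13.8, 22.4 and 10.2 CPM in the dual-indexed libraries (0.86, adjusted p = 0.0182): the dual-indexed males were highest, and the dual-indexed Chd8 het female lay within the single-indexed range. Npas4 (1.09) and Egr2 (1.74) rose as well. In males alone 20 of the list were higher with a median of 0.71, and in females alone 0 were higher and 1 lower with a median of -0.23. Over all genes the male fit called 3576 higher and 4011 lower and the female fit 918 and 406, so these list counts are not compared. The higher count was 1, 1 and 2 without the single-indexed WT male, the single-indexed Chd8 het male and the dual-indexed WT male, and 14 and 16 without the single-indexed and the dual-indexed Chd8 het female. The lower count was 1 without the single-indexed Chd8 het male, the single-indexed Chd8 het female or the dual-indexed WT male, and the median was 0.19 without the Chd8 het male of either index type and 0.58 without the single-indexed Chd8 het female. Clock genes had 2 higher (Bhlhe41 0.45, Npas2 0.35) and 1 lower of 18, fewer than the 34.3% called over all genes. Glucocorticoid-induced genes had 3 lower and 0 higher of 15 (Nfkbia -0.73, Errfi1 -0.57, Ddit4 -0.47), near the 17.7% lower over all genes. Glycolysis and hypoxia genes had 7 lower and 1 higher of 23, with Gapdh at -0.73 and Eno1 at -0.52; 3 were higher without the Chd8 het female of either index type and 2 without the dual-indexed WT male. Cholesterol synthesis genes had 6 lower and 1 higher of 21 (Fdps -0.66, Ebp -0.60), with 10 lower without the dual-indexed Chd8 het male and 0 higher when any 1 library other than the dual-indexed Chd8 het female was left out. Of 21 interferon-induced genes 5 were lower and 3 higher (H2-K1 -0.90, Bst2 -0.83, B2m -0.68).

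**Figure D5:**
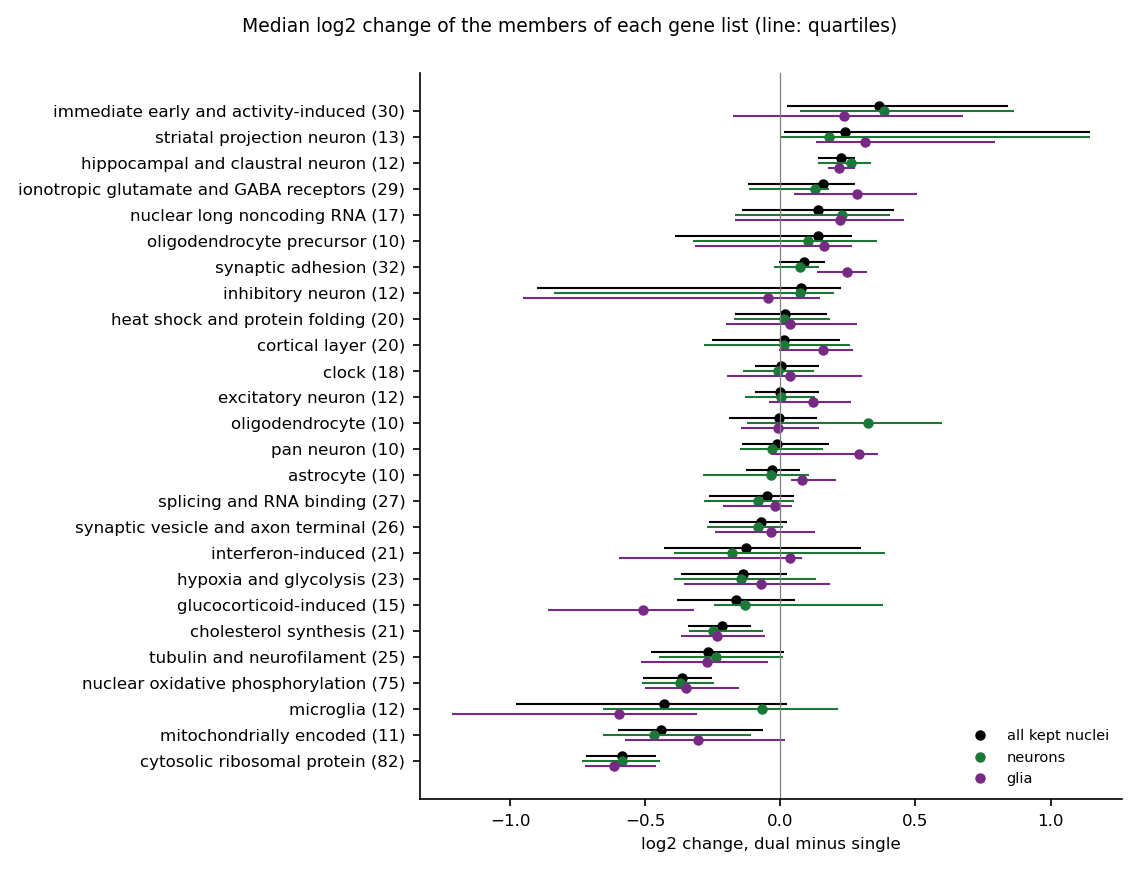
Median log2 change (dual minus single) of the tested members of gene lists over all kept nuclei, in neurons and in glia. Lists of endothelial, mural, fibroblast, blood and choroid plexus, and sex-linked genes are not drawn. Lines run from the lower to the upper quartile of the members, and the number tested over all nuclei is in parentheses. Ribosomal protein genes had the lowest median over all nuclei and in neurons (-0.59 in both) and stood at -0.62 in glia, where blood and choroid plexus genes were lower (-1.13), the synaptic adhesion median was 0.07 in neurons and 0.25 in glia, and the microglial median was -0.07 in neurons and -0.60 in glia.

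Whether an index difference itself differed between neurons and glia was tested on both sums of each library. Of 21724 genes 631 passed (2.9%), 222 (1.02%) with a higher and 409 (1.88%) with a lower difference in glia. Cyp2j8, a cytochrome P450 gene, stood at 0.908, 0.898, 1.09 and 1.04 CPM in single-indexed and 4.31, 5.65, 4.33 and 5.45 CPM in dual-indexed neurons, and at 11.7, 9.90, 7.35 and 13.8 against 9.08, 9.91, 6.64 and 8.71 CPM in glia. Maml3, a Notch co-activator gene, stood at 148, 177, 111 and 123 against 418, 426, 214 and 265 CPM in neurons, and at 199, 209, 162 and 200 against 204, 218, 159 and 220 CPM in glia (0.05, adjusted p = 0.683). Among glial classes Maml3 was near its glial value in microglia (0.10) and passed in astrocytes, at 32.6 ± 10.1 against 76.5 ± 18.3 CPM (adjusted p = 0.00346); the difference between these classes was not tested. Fyb and Gpr34, genes of microglia (Gpr34 lies within Cask on the other strand), rose in neurons (0.95 and 0.34) and fell in glia (-0.39 and -0.78), and the antisense transcript Gm15417 rose by 2.62 in neurons and 0.61 in glia. The count was 181, 344, 408, 388, 413 and 1201 without the single-indexed WT male, Chd8 het male and Chd8 het female and the dual-indexed WT male, Chd8 het male and Chd8 het female, and 391 by DESeq2. Between the sexes, which are different litters here, 1 gene of 22187 passed by edgeR (0.00451%), and 1602 had an unadjusted p under 0.05. The gene was Lrtm1, at 240 and 196 CPM in single-indexed and 96.3 and 85.8 CPM in dual-indexed males. In females Lrtm1 stood at 124 and 106 against 122 and 107 CPM (difference 1.25, adjusted p = 0.0289). It passed without the dual-indexed WT female, when 103 genes passed, and without the dual-indexed Chd8 het female, and did not pass when any 1 of the other 6 libraries was left out. DESeq2 called 28 genes, Lrtm1 among them.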

How the data were processed

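The authors deposited whole-number UMI counts per gene and barcode for each library; the submitters' processing notes name STAR 2.7.9a, STARsolo, Cell Ranger and the mm10 build, and whether counting used strand is not given in the sources used here. Barcodes with at least 500 genes and at most 5% mitochondrial UMIs were kept. Neurons had a pan-neuronal marker score of at least 2.2 and low glial and vascular scores; glia had a glial score of at least 0.5 with a margin of 1.5 over the next class. The cell type lists counted above hold the same markers as these gates. Predicted doublets (Scrublet in scanpy 1.11.5) were kept, and removed as an alternative. Counts were summed per library and gate. Genes passing edgeR's expression filter at a minimum count of 10 were fitted with edgeR 4.0.16 (R 4.3.3; TMM scaling, quasi-likelihood F test with sex, genotype and index type, Benjamini-Hochberg adjustment over all genes tested, threshold 0.05), and log2 changes are dual minus single. DESeq2 1.42.0, other filters, thinning to 2000 UMIs per nucleus, subsets and leaving out each library were alternatives. The scripts were tested on simulated data. Biotype and span came from the GENCODE M21 annotation, matched for 32235 of 32285 gene identifiers.

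Genes were named by a rule: the 10 largest rises and falls at 10 CPM or more without overlap (5 each in neurons and glia), the 5 smallest p of the gate interaction, up to 3 called members of each list in its main direction, and Chd8, Malat1 and the sex-linked genes. Other list members, genes opposite an antisense transcript and Lrtm1 were named after their values were seen. The lists and the comparison itself were chosen with earlier results of these data known. Each library is 1 mouse, and p-values measure the spread between mice within an index type. The WT and Chd8 het mouse of a litter-matched pair were treated as independent, so the p-values do not measure the spread between litters. Some genes of the lists are counted but not reported by name here.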

Additional observations from a re-analysis of the deposited data

Results flagged for a closer look

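In 5 of 150 groups of 4 libraries, 1 library lay far from the other 3 for the group's range, where chance gives about 1 in 20 groups. The dual-indexed Chd8 het male had a median of 6210 UMIs per nucleus, where the next library had 7530 and the highest 7766. The single-indexed Chd8 het male had 2.98% vascular-marker nuclei, beside 2.15 and 1.99% in the nearest and farthest of the others. The single-indexed Chd8 het female had 74680 CPM of Malat1, below 82018 to 83079 CPM in the other 3. Gm15700 stood at 16.9 CPM in the dual-indexed WT male, above 14.6 to 14.9 CPM. Oligodendrocyte marker genes summed to 1146 unscaled CPM in the single-indexed Chd8 het male, above 987 to 1005 in the other 3.

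The index difference differed between glia and neurons for the 5 genes with the smallest p (edgeR interaction, glia minus neurons on the log2 scale). It was -1.39 for Fyb, -2.70 for Cyp2j8 and -1.20 for Maml3 (each adjusted p = 7.33e-07), -1.17 for Gpr34 (adjusted p = 3.65e-06) and -2.04 for Gm15417 (adjusted p = 8.11e-06). For Lrtm1, a leucine-rich repeat membrane protein gene, the index difference in females minus that in males was 1.25 on the log2 scale (adjusted p = 0.0289).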

How the results depend on the processing

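Of 101 alternative counts of called genes, 66 stayed within 1.5 times the main count. Male libraries alone gave 7587 genes over all nuclei, 6914 in neurons and 2673 in glia. The other subsets of 4 libraries gave lower counts: 4506, 1286 and 1324 genes over all nuclei in WT, Chd8 het and female libraries alone, 4496, 75 and 1416 in neurons, and 499, 914 and 821 in glia. In glia DESeq2 called 1765 genes and thinned nuclei gave 1397. For the interactions DESeq2 called 391 genes with gate, 1 with genotype and 28 with sex, and no filter on low counts gave 2 with sex. Leaving out 1 library gave 4841 to 8345 genes over all nuclei, 4465 to 8220 in neurons, 1452 to 3028 in glia, 181 to 1201 for the gate, 0 for genotype and 0 to 103 for sex. The single-indexed WT male and Chd8 het male gave the lowest counts.

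Of 2809 alternative values of named genes, 2506 stayed on their side of the threshold, 297 lost the call and 5, all of Xist, gained it (-0.44 to -0.56). The losses were uneven: of 127 results for named genes, 52 lost the call in Chd8 het, 50 in female, 27 in WT and 10 in male libraries alone. Of called genes 1 reversed: Eif2s3y, at 0.067 by DESeq2. Uncalled genes also crossed 0: Xist ranged from -0.56 to 0.65, Kdm5d from -0.22 to 0.44, Uty from -0.12 to 0.39 and Chd8 from -0.0069 to 0.156. The ranges of the sex-linked genes include fits of the other sex alone, where few UMIs were counted (Xist, 10 to 30 per male library). In the own sex Xist, Kdm5d and Uty were lower in the dual-indexed library of each genotype in unscaled CPM. List medians that reversed from a main value larger than the SD of the list's summed difference over the 4 genotype and sex combinations were 0.14 for microglia, 0.0054 for interferon-induced genes and 0.0053 for splicing genes with thinned nuclei, 0.0052 for synaptic vesicle genes in WT libraries and 0.032 for interferon-induced genes in females. Others crossed 0 from within that SD: the immediate early median was -0.23 in females, and the ranges were -0.38 to 0.086 for glucocorticoid-induced genes, -0.13 to 0.16 for astrocyte markers and -0.82 to 0.68 for blood and choroid plexus genes, with smaller crossings in other lists. With at least 1000 genes and at most 1% mitochondrial UMIs, the glial difference was 2.23 and the microglial 0.503 percentage points. The differences in vascular-marker and ungated nuclei were 0.605 and 1.87 points there (each exact permutation p = 0.0286). The cause was not tested. With each combination of genotype and sex as a block, 6990 genes passed over all nuclei, 6780 in neurons and 3028 in glia; these blocks join mice of different litters, and replicate number could not be a block because it coincides with index type. Depth per nucleus and index type cannot be told apart; thinned nuclei gave 5618 called genes over all nuclei.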
